A study of Mus musculus with 6 samples.

Results

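Pleiotrophin, midkine, the syndecans and the glypicans were followed through 6 RNA sequencing libraries of TM3, a long-used line of Leydig cells from mouse testis. The 10 genes, of 54532 in the count table, were taken by symbol: the ligands Ptn and Mdk, the syndecans Sdc1, Sdc2, Sdc3 and Sdc4, and the glypicans Gpc1, Gpc3, Gpc4 and Gpc6. This list was selected on earlier results of the same comparison, in which Ptn was lower with A20 overexpression, so the differences of the members between the groups are given below as descriptions. Of the libraries, 3 came from cells with the genotype A20 overexpression and 3 from control cells labelled WT, all cultured in DMEM/F12 with fetal bovine and horse serum. The construct and its promoter, the use of single clones or pools and the origin of the 3 libraries of a group in separate cultures are not given in the sources used here. The p-values therefore measure the spread between these libraries, which may be technical. A20, the product of Tnfaip3, edits ubiquitin chains on signalling proteins and dampens NF-kB activity.

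Pleiotrophin and midkine are small secreted growth factors that bind heparin and the sulfated sugar chains of proteoglycans. Syndecans span the membrane and glypicans are tied to it by a lipid anchor, and both carry heparan sulfate chains that hold growth factors at the cell surface. The response to the ligands is known to pass through the receptor phosphatase Ptprz1, the receptor kinase Alk, the lipoprotein receptor Lrp1, integrins and syndecan 3. In the testis, Leydig cells lie in a stroma rich in such matrix and make androgens.

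The libraries held 13841287 to 16917979 counts. Tnfaip3 stood at 41.0, 33.7 and 43.6 CPM (counts scaled to the library's total) in A20-overexpressing replicates 1, 2 and 3, and at 30.9, 11.9 and 15.2 CPM in control replicates 1, 2 and 3. Its log2 fold change was 1.08 with all 6 libraries (adjusted p = 0.331 in edgeR) and 1.51 ± 0.19 (SE) without control replicate 1 (adjusted p = 0.000256). Control replicate 1 stood apart. It held 851 CPM of Cyp11a1, the first enzyme of steroid synthesis, against 0 to 0.144 CPM in the other 5 libraries, and the 7 steroidogenic Leydig markers summed to 2039 CPM there. Their sum was 5.26 to 7.86 CPM in the A20-overexpressing libraries and 3.97 and 6.29 CPM in control replicates 2 and 3, where Hsd3b1 and Lhcgr had no count, so these 5 libraries lacked defining markers of the labelled cell type. Of 6 Sertoli cell markers 4 had counts, and Sox9 and Fshr were at 0 throughout. Their sums were 30.1 to 37.3 CPM in A20-overexpressing libraries and 348, 35.4 and 52.5 CPM in control replicates 1, 2 and 3. Clu, at 221 CPM, and Gata4, at 123 CPM, made up most of the sum in control replicate 1, with Amh at 0.195 CPM. The 7 peritubular and fibroblast markers summed to 12454 to 13078 CPM in A20-overexpressing libraries and to 3051, 9252 and 11612 CPM in control replicates 1, 2 and 3. Most of this was Col1a1 and Col1a2, with means of 6894 and 5734 CPM in A20 overexpression and of 3684 and 4098 CPM in control. Control replicate 1 lowered these control means, with 1410 and 1437 CPM. Control replicates 2 and 3 averaged 4821 CPM of Col1a1 and 5429 CPM of Col1a2, and the groups overlapped for Col1a2 but not for Col1a1. Myh11 was at most 0.586 CPM and Thy1 at most 0.0722 CPM in any library. Of 5 macrophage markers 3 had counts, with sums of 22.7 to 42.9 CPM in A20-overexpressing libraries and of 5.93, 32.6 and 34.7 CPM in these controls, and Ptprc and Adgre1 at 0 throughout. The 5 endothelial markers summed to 3.31 to 5.11 CPM in A20-overexpressing libraries and to 36.7, 3.97 and 4.55 CPM in these controls, and the 6 germ cell markers, with Dazl and Tnp1 at 0, to 8.08 to 12.2 CPM in A20-overexpressing libraries and to 9.77, 6.13 and 8.24 CPM in these controls. In control replicate 1 the endothelial sum was nearly all Cdh5, at 35.05 CPM, with Kdr and Tek at 0 and Egfl7 at 1.04 CPM, lower than in the other libraries, and Acta2, of the peritubular list, was highest there, at 77.6 CPM. The 4 epithelial markers summed to at most 1.06 CPM in A20-overexpressing libraries and to at most 2.61 CPM in controls. What part the differences in markers had in the results below was not tested. Fitted fold changes are given with all 6 libraries and without control replicate 1.

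The syndecans share a cytoplasmic tail, by whose last residues they bind PDZ-domain proteins such as syntenin. The last 30 coding bases of each syndecan are shown because they carry this common feature, which the choice of members did not use. They are from GENCODE M21 transcripts on GRCm38, with the last 4 codons before the stop in capitals.
Sdc1: cccaccaagcaggagGAGTTCTACGCCtga
Sdc2: aaggcacccactaagGAGTTTTATGCAtaa
Sdc3: cctgacaagcaggagGAGTTCTACGCTtag
Sdc4: aaagcccccaccaatGAGTTCTACGCAtga
In each of the 4 genes these codons read glutamate, phenylalanine, tyrosine and alanine. Identity was also taken over the whole coding sequences, these codons included. Over aligned bases, the syndecan pairs were 64.6% identical (Sdc2 and Sdc4) to 74.2% identical (Sdc3 and Sdc4), the glypican pairs 55.7% (Gpc3 and Gpc4) to 68.3% (Gpc4 and Gpc6), and Ptn and Mdk 67.3%. The longest run of identical bases between the coding sequences of any such pair was 29 bases, in Sdc3 and Sdc4. This run is longer than the stretch in capitals, so identity was not confined to the last 4 codons. Pairs of serine and glycine codons, the residues at which glycosaminoglycan chains can be attached, numbered 5, 3, 8 and 3 in Sdc1, Sdc2, Sdc3 and Sdc4 and 6, 2, 4 and 5 in Gpc1, Gpc3, Gpc4 and Gpc6. Gpc4 and Gpc3 lie next to each other on the X chromosome, with 107173 bases between them.

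Promoter sequences from RefSeq (GRCm38.p6) were on hand for 6 of the 10 members. The upstream sequences of Ptn and Sdc4 are shown. Ptn is the tested member with the largest difference between the groups, and Sdc4 is, of the members tested, the one with control replicate 1 farthest above the mean of the other libraries. Both genes are on the minus strand, and the sequences run 5′ to 3′ along it. For Ptn they cover chr6:36810221-36810429, 209 bases that end before the annotated first exon, and for Sdc4 chr2:164443189-164443438, the 250 bases before the RefSeq start of the coding transcript. In GENCODE M21 this stretch of Sdc4 lies in the first intron of a longer noncoding transcript, which sets the end of the gene. Capitals mark matches to the motifs named in the next sentences.
Ptn: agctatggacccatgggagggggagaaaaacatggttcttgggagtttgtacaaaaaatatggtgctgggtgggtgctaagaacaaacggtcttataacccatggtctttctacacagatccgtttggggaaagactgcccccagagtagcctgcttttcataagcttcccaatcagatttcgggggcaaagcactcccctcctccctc
Sdc4: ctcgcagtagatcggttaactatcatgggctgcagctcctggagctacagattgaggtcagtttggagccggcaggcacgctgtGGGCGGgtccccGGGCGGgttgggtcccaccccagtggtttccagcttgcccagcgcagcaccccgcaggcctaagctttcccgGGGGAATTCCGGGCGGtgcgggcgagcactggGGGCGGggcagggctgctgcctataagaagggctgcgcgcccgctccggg
Both strands of the 250 bases before each start were searched for the TATA box TATAAA, the GC box GGGCGG, the AP-1 site TGANTCA and the NF-kB consensus. The upstream sequence of Ptn held none of the 4. That of Sdc4 held the GC box 4 times, at bases -166, -154, -72 and -50 from the start, and the NF-kB consensus at bases -82 to -73, right before the third of these. Sdc1 also had an NF-kB match, at bases -134 to -125, and Sdc3, Gpc3 and Gpc4 had none. Over 32851 RefSeq promoters, 7.25% held the NF-kB consensus, 32.7% the GC box, 12.4% the TATA box and 6.75% the AP-1 site in the same window. A match describes letters and does not show binding.

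Levels per gene length, as the deposited FPKM, put Sdc2 first in both groups and Ptn and Gpc6 last among the members tested. In A20-overexpressing libraries Sdc2 was highest, at 58.9 FPKM ± 4.28, followed by Sdc1 at 42.8 ± 7.0, Gpc4 at 34.8 ± 4.63, Sdc4 at 28.8 ± 2.46, Gpc1 at 15.96 ± 1.63, Gpc6 at 2.48 ± 0.175 and Ptn at 0.524 ± 0.244 FPKM (SD, n = 3). In controls Sdc2 was at 56.7 ± 9.45, Sdc4 at 36.7 ± 13.8, Gpc4 at 35.3 ± 4.94, Sdc1 at 33.2 ± 10.9, Gpc1 at 9.52 ± 4.17, Ptn at 2.44 ± 0.851 and Gpc6 at 1.93 ± 0.618 FPKM (SD, n = 3). In A20-overexpressing libraries the values of Sdc1 overlapped with those of Gpc4, and those of Gpc4 with those of Sdc4, while every other neighbouring pair in this order was apart. In controls the values of Sdc2, Sdc4, Gpc4 and Sdc1 overlapped from one to the next, as did those of Ptn and Gpc6, and Gpc1 was apart from both its neighbours. The place of Sdc4 in the controls rested on control replicate 1, and over control replicates 2 and 3 the order was Sdc2 at 61.9 ± 3.76, Sdc1 at 39.5 ± 0.484, Gpc4 at 32.6 ± 1.58, Sdc4 at 29.0 ± 4.31, Gpc1 at 11.8 ± 1.85, Ptn at 2.82 ± 0.767 and Gpc6 at 2.29 ± 0.125 FPKM (SD). Ptn stood below Gpc6 in each A20-overexpressing library and above it in each control. The remaining members had fewer than 10 counts each over the 6 libraries. Gpc3 had 9 counts, all in control replicate 1, Mdk had 3 counts, and Sdc3 had none. Zero counts allow a level of up to 0.177 to 0.217 CPM, which corresponds to 3 counts in the deepest and in the shallowest library, counting error alone considered. Thus 7 members passed the filter on low counts and entered the test.

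**Figure D1:**
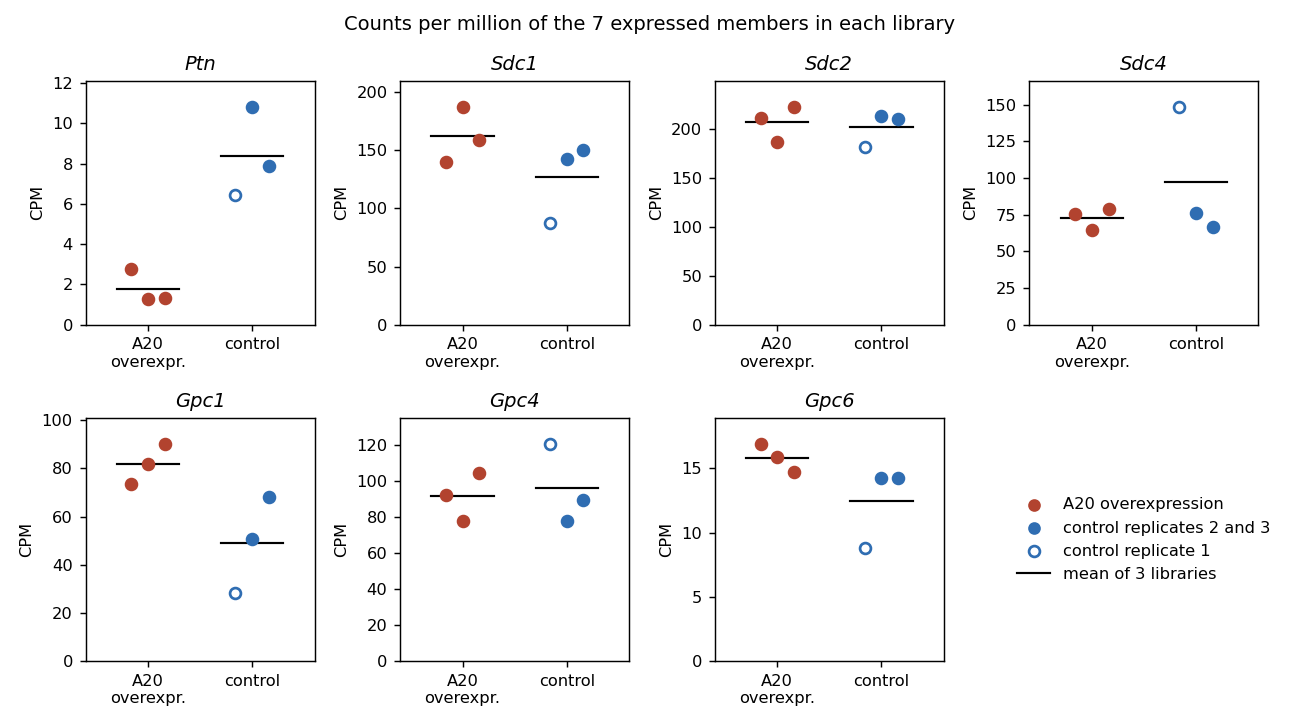
CPM of the 7 members that were tested, one point per library, with A20 overexpression left of control and the mean of 3 libraries as a line. Ptn lies at 1.28 to 2.78 CPM in A20 overexpression and at 6.45 to 10.8 CPM in control, and control replicate 1 (open circle) lies outside the range of the other 5 libraries for each member but Ptn.

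Pleiotrophin, the one ligand of the pair with more than a few counts, was lower in cells overexpressing A20. Ptn (ENSMUSG00000029838, GRCm38 chromosome 6, 36714929 to 36810220) had 47, 20 and 20 counts in A20-overexpressing replicates 1, 2 and 3, and 99, 155 and 109 counts in control replicates 1, 2 and 3. In CPM these were 2.78, 1.28 and 1.32 with A20 overexpression and 6.45, 10.8 and 7.87 in control. The groups did not overlap, and control replicate 1, which stood apart in many other genes, lay on the side of the other controls here. The means were 1.79 CPM ± 0.853 in A20 overexpression and 8.38 CPM ± 2.22 in control (SD, n = 3 each). The log2 fold change was -2.21 ± 0.46 (SE) with all 6 libraries, a 4.63-fold difference, and -2.41 ± 0.37 (SE) without control replicate 1. edgeR's quasi-likelihood test gave an adjusted p of 0.212 over all genes with 6 libraries (unadjusted p = 0.00103) and of 0.00158 without control replicate 1. Since the list was drawn up with this difference known, these values describe it and are no independent support. In bulk RNA, fewer cells that express a gene and less RNA per cell cannot be told apart.

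Midkine, the other ligand, was at or near 0. Mdk (ENSMUSG00000027239, chromosome 2, 91929805 to 91932297) had 0, 0 and 1 counts in A20-overexpressing replicates 1, 2 and 3, and 2, 0 and 0 counts in control replicates 1, 2 and 3. No difference was detectable at this depth.

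None of the 3 syndecans tested was called as different between the groups, with adjusted p-values of 0.667 to 0.938 in edgeR with all 6 libraries and of 0.713 to 0.987 without control replicate 1. Sdc2 (ENSMUSG00000022261, chromosome 15, 32920723 to 33034935), a syndecan typical of mesenchymal cells, stood at 211, 187 and 222 CPM in A20-overexpressing replicates 1, 2 and 3, and at 182, 213 and 210.5 CPM in control replicates 1, 2 and 3. These ranges overlapped, and the log2 fold change was 0.05 ± 0.17 (SE) with all 6 libraries and -0.07 ± 0.14 (SE) without control replicate 1. Sdc1 (ENSMUSG00000020592, chromosome 12, 8771323 to 8793715), which is best known from epithelia and plasma cells, stood at 139.6, 187 and 159 CPM with A20 overexpression and at 87.6, 142 and 150.2 CPM in control. Its lowest value was in control replicate 1, and the other 5 libraries overlapped. The log2 fold change of Sdc1 was 0.36 ± 0.26 (SE) with all 6 libraries and 0.12 ± 0.15 (SE) without that one. Sdc4 (ENSMUSG00000017009, chromosome 2, 164424247 to 164443887), a syndecan of focal adhesions, stood at 75.2, 64.8 and 79.0 CPM with A20 overexpression and at 148, 76.3 and 66.5 CPM in control. Control replicate 1 alone was high. Sdc4 had a log2 fold change of -0.36 ± 0.25 (SE) with all 6 libraries and of -0.01 ± 0.15 (SE) without control replicate 1. Sdc3 (ENSMUSG00000025743, chromosome 4, 130792537 to 130826319), the syndecan that binds pleiotrophin in neurons, had 0 counts in all 6 libraries.

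Summed per length, syndecan RNA differed between the groups by less than the spread between libraries, while control replicate 1 had another mixture. The sum of the syndecans was 130.5 FPKM ± 5.03 with A20 overexpression and 127 FPKM ± 8.89 in control (SD, n = 3 each), or 130.4 FPKM ± 8.55 over control replicates 2 and 3. Sdc4 made up 23.4%, 19.9% and 22.8% of it in A20-overexpressing replicates 1, 2 and 3, and 43.9%, 23.5% and 20.8% in control replicates 1, 2 and 3. Sdc1 made up 29.1%, 38.5% and 30.8% with A20 overexpression, and 17.3%, 29.2% and 31.5% in control. The shares of control replicates 2 and 3 lay among or next to those of the A20-overexpressing libraries for both genes.

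**Figure D2:**
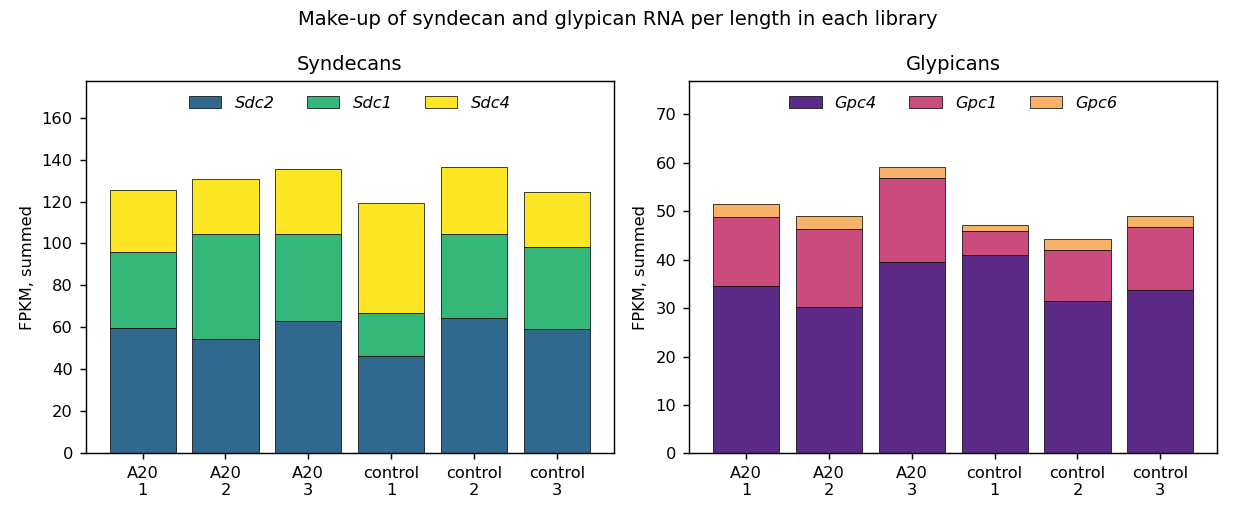
Deposited FPKM of the syndecans (left) and glypicans (right), stacked by gene, for each A20-overexpressing library and then each control library. Sdc4 fills 43.9% of the syndecan bar in control replicate 1 and 19.9% to 23.5% in the others, and Gpc4 fills 86.5% of the glypican bar there and 61.6% to 71.0% in the others.

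Among the glypicans, Gpc1 stood higher in every A20-overexpressing library than in any control, with means less than 2-fold apart. Gpc1 (ENSMUSG00000034220, chromosome 1, 92831645 to 92860779), a glypican of many adult tissues that binds fibroblast growth factors through its chains, stood at 73.6, 81.8 and 90.2 CPM in A20-overexpressing replicates 1, 2 and 3, and at 28.5, 50.7 and 68.1 CPM in control replicates 1, 2 and 3. The controls were spread over a wider range than the A20-overexpressing libraries, with control replicate 3 close to the lowest of these. The log2 fold change of Gpc1 was 0.74 ± 0.31 (SE) with all 6 libraries and 0.43 ± 0.16 (SE) without control replicate 1, with an adjusted p of 0.49 and of 0.116 in edgeR. Gpc6 (ENSMUSG00000058571, chromosome 14, 116925315 to 117976544), one of the less abundant glypicans, stood at 16.9, 15.9 and 14.7 CPM with A20 overexpression and at 8.80, 14.3 and 14.2 CPM in control. The groups did not overlap, but control replicates 2 and 3 came within 1 CPM of the lowest A20-overexpressing library. Gpc6 had a log2 fold change of 0.36 ± 0.28 (SE) with all 6 libraries and of 0.12 ± 0.20 (SE) without control replicate 1.

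Gpc4, the most abundant glypican, did not follow Gpc1. Gpc4 (ENSMUSG00000031119, chromosome X, 52053021 to 52165252) stood at 92.3, 78.1 and 105 CPM with A20 overexpression and at 121, 78.0 and 89.9 CPM in control. The values overlapped, and the log2 fold change was -0.03 ± 0.17 (SE) with all 6 libraries and 0.09 ± 0.15 (SE) without control replicate 1. The share of Gpc1 in glypican FPKM was 27.6%, 33.2% and 29.5% in A20-overexpressing replicates 1, 2 and 3, and 10.5%, 23.7% and 26.8% in control replicates 1, 2 and 3. The glypican sum was 51.5, 49.0 and 59.1 FPKM with A20 overexpression and 47.3, 44.3 and 49.0 FPKM in control. Its means were 53.2 FPKM ± 5.31 with A20 overexpression and 46.9 FPKM ± 2.37 in control (SD, n = 3 each), or 46.7 FPKM ± 3.31 over control replicates 2 and 3. The values met at 49.0 FPKM in A20-overexpressing replicate 2 and in control replicate 3. Gpc3 (ENSMUSG00000055653, chromosome X, 52272426 to 52613950), the neighbour of Gpc4 and an inhibitor of growth in the embryo, had no count in the A20-overexpressing libraries, and 9, 0 and 0 counts in control replicates 1, 2 and 3.

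With all 6 libraries, edgeR called 0 of the 7 members tested, where 0.015% of 13350 genes were called. An unadjusted p of at most 0.05 was found for Ptn and Gpc1, and for 10% of all genes tested. DESeq2 called Ptn alone of the members, with an adjusted p of 0.00148. It called 162 of the 26303 genes with a count, 107 as lower and 55 as higher. Without control replicate 1, edgeR called Ptn as lower and no member as higher, where 4.6% of 13658 genes were called, 2.68% as lower and 1.92% as higher. Ptn was the only member whose groups were apart with A20 overexpression lower, a pattern of 9.27% of genes with all 6 libraries and 17.2% without control replicate 1. Gpc1 and Gpc6 were apart with A20 overexpression higher, as were 7.62% of genes with all 6 libraries and 20.7% without control replicate 1. The median log2 fold change of the 7 members tested was 0.05 with all 6 libraries and 0.09 without control replicate 1, and over all genes tested it was -0.03 and -0.0028. Control replicate 1 was the extreme library for 6 of the 7 members, above the others for Sdc4 and Gpc4 and below them for Sdc1, Sdc2, Gpc1 and Gpc6, and it was outside the range of the others for 62.4% of all genes tested.

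**Figure D3:**
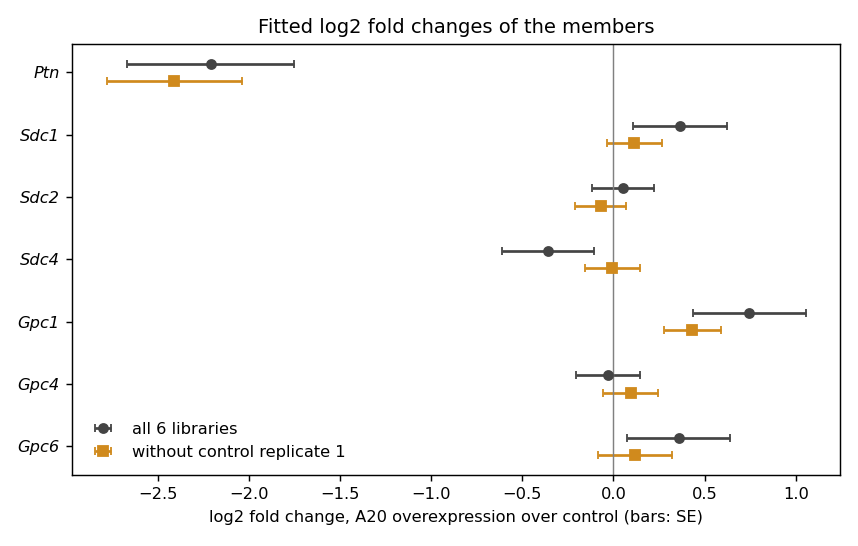
Fitted log2 fold change of A20 overexpression over control with its SE for each member tested, with all 6 libraries (circles) and without control replicate 1 (squares). Ptn lies at -2.21 and -2.41, and the other members lie between -0.36 and 0.74 in the first fit and between -0.07 and 0.43 in the second.

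The other genes of the pathway were taken from 9 lists of 103 genes, covering receptors, other proteoglycans, chain synthesis, remodelling, breakdown and syndecan partners. Like the members, the lists were chosen with earlier results of these data known. Their counts, in this and the next paragraphs, are therefore descriptions and no independent support. Of these genes, 72 were tested and 16 had no count in any library. With all 6 libraries edgeR called 0 of 72, and 11 had an unadjusted p of at most 0.05, which 10% of all genes had. DESeq2 called 3 of the 87 list genes with a count, all as higher, where 55 of 26303 genes were called as higher and 107 as lower. The 3 were Itgb1 (log2 fold change 1.03, adjusted p = 0.0001), Papss2 (0.78, adjusted p = 0.00342) and Ust (0.86, adjusted p = 0.0338). Without control replicate 1, edgeR called 6 of 72 as higher and 1 as lower, with 65 not past the threshold, where 1.92% of all genes were called as higher and 2.68% as lower. In that fit 19 of 72 had an unadjusted p of at most 0.05, against 21.6% of all genes. By list these were 6 of 12 in heparan sulfate synthesis, 5 of 11 in chondroitin sulfate synthesis and 3 of 7 in remodelling and shedding. There were also 2 of 8 receptors and partners, 2 of 7 in lysosomal breakdown and 1 of 9 in sulfate and sugar nucleotide supply. The median log2 fold change over the 72 genes was 0.12 with all 6 libraries and 0.10 without control replicate 1. Calls of single genes below are from the fit without control replicate 1.

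Of 14 receptors and binding partners of the ligands 8 were tested and 1, Itgb1, was called. Ptprz1, Alk and Lrp1 were singled out after their values were seen. Ptprz1 and Alk had 0 counts in all 6 libraries. Lrp1, the endocytic receptor, averaged 796 CPM ± 21.9 in A20 overexpression and 689 CPM ± 180 in control (SD, n = 3 each), with a log2 fold change of 0.23 ± 0.23 (SE) with all 6 libraries and of 0.04 ± 0.15 (SE) without control replicate 1. Itgb1, the integrin beta 1 subunit and the most abundant gene of this list, stood at 2028, 1858 and 2249 CPM in A20-overexpressing replicates 1, 2 and 3, and at 1010, 1131 and 916 CPM in control replicates 1, 2 and 3. The groups were far apart, and control replicate 1 lay among the controls. The log2 fold change of Itgb1 was 0.96 ± 0.16 (SE) with an adjusted p of 0.00392 in edgeR, and with all 6 libraries it was 1.02 ± 0.20 (SE, adjusted p = 0.205). Of the other heparan sulfate proteoglycans edgeR called 0 of 5, with 0 at an unadjusted p of at most 0.05, which 21.6% of all genes had in this fit, and Hspg2, the basement membrane proteoglycan perlecan, had a log2 fold change of 0.15 ± 0.27 (SE) with all 6 libraries and of -0.06 ± 0.18 (SE) without control replicate 1. Gpc2 and Gpc5, the remaining glypicans, also singled out after their values were seen, had 0 counts.

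Of the genes for making and sulfating the chains, in lists of 5, 12, 11 and 9 tested, edgeR called 4 as higher and 0 as lower without control replicate 1. Over all genes that fit called 1.92% as higher and 2.68% as lower. With all 6 libraries 0 of these genes were called. None of the 4 passed when 1 A20-overexpressing library was left out as well. Papss2, which makes the sulfate donor, was at 132, 129 and 135 CPM with A20 overexpression and at 79.3, 67.5 and 89.0 CPM in control, without overlap. Its log2 fold change was 0.73 ± 0.15 (SE, adjusted p = 0.0106 in edgeR), against 0.78 ± 0.15 (SE) with all 6 libraries, and it was the 1 of 9 genes of sulfate and sugar nucleotide supply called. Ust, a sulfotransferase of chondroitin and dermatan sulfate, was at 30.5, 27.3 and 38.9 CPM with A20 overexpression and at 18.5, 16.7 and 19.4 CPM in control. The groups did not overlap, and the log2 fold change of Ust was 0.80 ± 0.19 (SE, adjusted p = 0.0237 in edgeR), against 0.85 ± 0.19 (SE) with all 6 libraries. It was the 1 of 11 genes of chondroitin sulfate synthesis called. Of 12 genes of heparan sulfate synthesis and sulfation, Hs6st1, a sulfotransferase, and Extl2, a glycosyltransferase, were called as higher. Hs6st1 stood at 28.1, 29.2 and 35.8 CPM with A20 overexpression and at 72.1, 13.9 and 20.9 CPM in control replicates 1, 2 and 3. Extl2 stood at 15.96, 14.9 and 14.7 CPM with A20 overexpression and at 18.7, 6.41 and 9.32 CPM in these controls. For both genes control replicate 1 lay above each of the other libraries, so that the calls rest on the 2 other controls. With all 6 libraries the log2 fold change of Hs6st1 was -0.12 ± 0.48 (SE) and that of Extl2 was 0.47 ± 0.34 (SE). No gene of linker region assembly was called by edgeR among 5 tested, 0 of them with an unadjusted p of at most 0.05. The most abundant genes of these lists were not called. Fam20b, the xylose kinase of the linker, had log2 fold changes of 0.04 ± 0.17 with all 6 libraries and 0.19 ± 0.14 without control replicate 1 (SE). Those of Glce, the epimerase of heparan sulfate, were 0.14 ± 0.18 and 0.01 ± 0.15 in the same fits. Dse, the epimerase of dermatan sulfate, had 0.39 ± 0.17 with all 6 and 0.40 ± 0.16 without that library, and Ugp2, which makes UDP-glucose, had -0.06 ± 0.20 and -0.15 ± 0.17.

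Among 7 genes of heparan sulfate remodelling and core protein shedding, 1 was called as higher (Furin) and 1 as lower (Mmp14). Furin, a proprotein convertase that activates shedding proteases, stood at 40.6, 36.3 and 45.9 CPM with A20 overexpression and at 32.2, 18.8 and 28.8 CPM in control replicates 1, 2 and 3. Its log2 fold change was 0.75 ± 0.19 (SE, adjusted p = 0.0299 in edgeR), and with all 6 libraries it was 0.66 ± 0.20 (SE, adjusted p = 0.389). Mmp14, a membrane metalloprotease that can cleave syndecans, stood at 150.1, 153 and 161 CPM with A20 overexpression and at 107, 185 and 251 CPM in these controls. Its log2 fold change was -0.52 ± 0.15 (SE, adjusted p = 0.0481 in edgeR), and with all 6 libraries it was -0.22 ± 0.30 (SE), with control replicate 1 below each A20-overexpressing library. Timp3, an inhibitor of such proteases and the most abundant gene of this list, had a log2 fold change of -0.03 ± 0.30 (SE) with all 6 libraries and of -0.32 ± 0.15 (SE) without control replicate 1. In lysosomal breakdown of heparan sulfate edgeR called 0 of 7, with 2 at an unadjusted p of at most 0.05, against that 21.6%. Of 8 cytoplasmic partners of the syndecans 0 were called and 0 had such a p, and Pdcd6ip, the adaptor Alix, had a log2 fold change of 0.27 ± 0.16 (SE) with all 6 libraries and of 0.17 ± 0.14 (SE) without control replicate 1. Of the 7 genes called, Itgb1 alone passed in each of the 3 fits that left out control replicate 1 together with 1 A20-overexpressing library, and the other 6 passed in none of these fits.

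**Figure D4:**
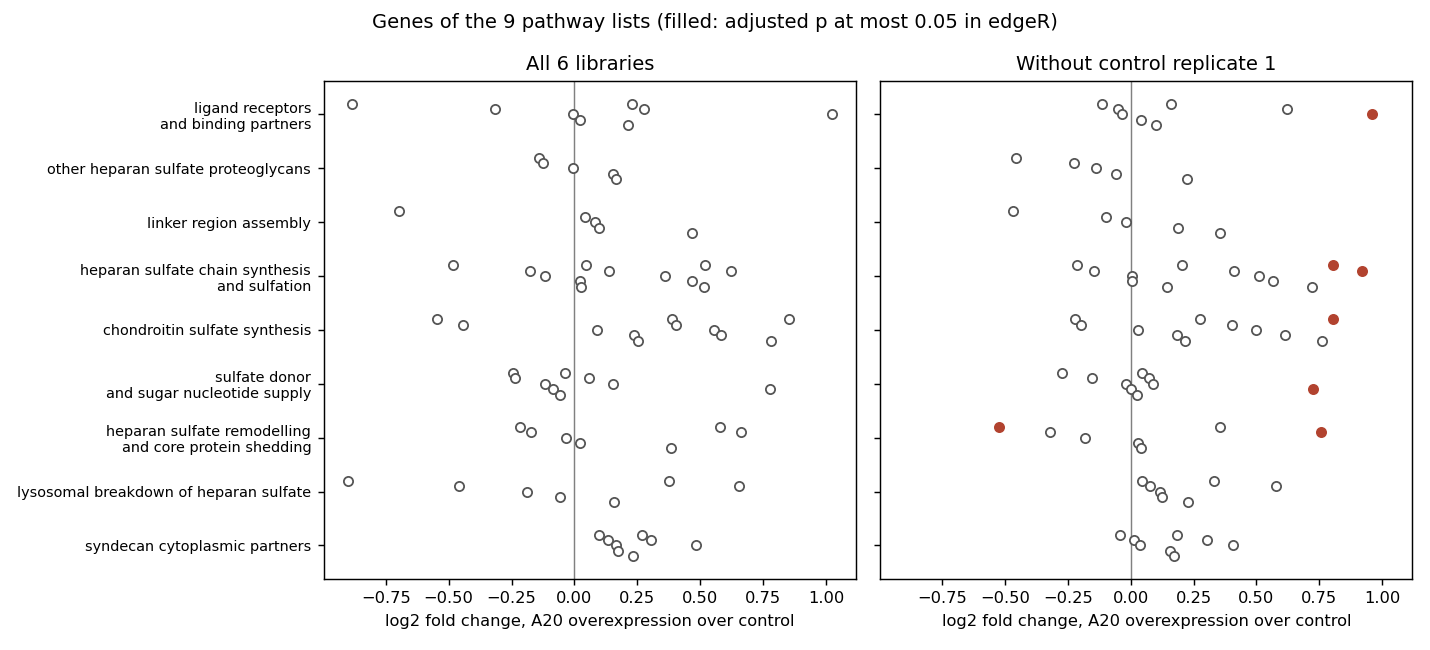
Log2 fold change of each tested gene of the 9 pathway lists, with all 6 libraries (left) and without control replicate 1 (right); filled points passed an adjusted p of 0.05 in edgeR. No point is filled on the left, and 7 are on the right, 6 of them above 0 and 1 (Mmp14, at -0.52) below.

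Ptn was the 1 tested member whose log2(CPM + 0.5) varied by more than 2 over the libraries. The genes nearest to its profile were looked up among 9781 protein-coding genes averaging 5 CPM or more. Likeness was the distance between the log2(CPM + 0.5) values of the 6 libraries, each gene centred on its own mean. The nearest were Rps27, a ribosomal protein gene (distance 0.524), Cd34, a surface sialomucin (0.664), Dach2, a transcription cofactor gene (0.746), Ank3, which encodes ankyrin G (0.751), and Rbm4, an RNA-binding protein gene (0.799). Rps27 stood at 203, 155 and 177 CPM in A20-overexpressing replicates 1, 2 and 3, and at 537, 834 and 754 CPM in control replicates 1, 2 and 3. Cd34 stood at 4.02, 2.17 and 2.65 CPM with A20 overexpression and at 11.2, 22.4 and 19.9 CPM in control. Rps27 has near-identical copies in the genome, among which reads may have been split. All 5 were lower in each A20-overexpressing library than in each control, which choosing them for their likeness to Ptn brings with it.

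**Figure D5:**
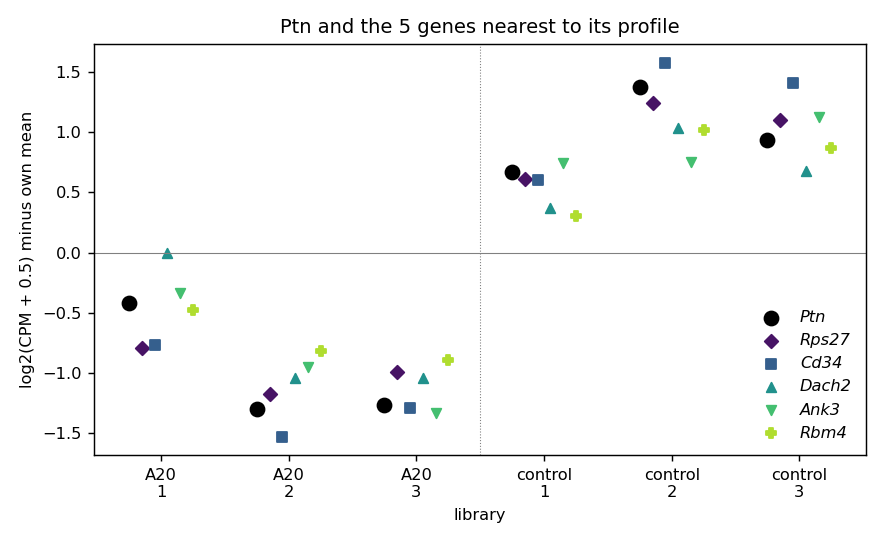
Log2(CPM + 0.5) of Ptn and of the 5 genes nearest to it, each minus its own mean over the 6 libraries, with the A20-overexpressing libraries left of the controls. The genes lie below their mean in the A20-overexpressing libraries, except Dach2, which is at its mean in replicate 1, and above their mean in the controls.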

How the data were processed

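Libraries of 3 A20-overexpressing and 3 control samples of TM3 cells were made from total RNA with a SMARTER mRNA kit, per the labels' protocols. The deposited table holds raw whole-number counts per gene, per the file headers, on GRCm38, per the submitters' processing notes; the aligner, counter and strand setting are not given in the sources used here. The authors' FPKM are counts per kilobase of gene length over a scaled library size, which kept the same ratio in each library to size factors computed here from the counts. They served for levels between genes and in alternatives.

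Differences were tested with edgeR 4.0.16 in R 4.3.3: TMM normalization, the default filter by group, robust quasi-likelihood F tests, and p-values adjusted by Benjamini and Hochberg's method over every gene that passed the filter, at a threshold of 0.05. The design held the group alone. CPM use the total count. The SE of a log2 fold change is its size over the square root of F. Alternatives used DESeq2 1.42.0 and limma 3.58.1. Simulated counts served to check the fits. Named are all members, list genes past the threshold in either fit, the most abundant gene per list (1 is not reported here), and the 5 nearest profiles of a member that varied widely. Members and lists were chosen with earlier results of these data known. Coding sequences came from GENCODE M21, with Biopython 1.88 for alignment. Without strand, reads of antisense genes could not be told apart; genes that overlapped exons of a member had 0 to 5 counts per library.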

Additional observations from a re-analysis of the deposited data

How the results depend on the processing

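With all 6 libraries, edgeR called 2 genes of the whole table, 0 list genes and 0 members. RLE factors, a minimum of 1 CPM in 3 libraries and the replicate block left these counts as they were. The whole-table count was 0 with library size alone, 0 with limma on log2(FPKM + 1) or log2(FPKM + 0.1), 23 without a filter and 162 with DESeq2, which also called 3 list genes and 1 member, Ptn. Over the 16 fits that left out 1 or 2 libraries, 0 to 2423 genes, 0 to 18 list genes and 0 to 2 members were called. The counts were 0 in each fit that left out 1 library other than control replicate 1, and 628 genes without that library. Leaving out both control replicates 1 and 3 gave the top of each of these ranges, and there the lone control is assumed to vary like the other group. The log2 fold change of Gpc1 was 0.61 in that fit. It was 0.28 where control replicates 1 and 2 were left out instead, so its size depended on which lone control remained. Without control replicate 1, the counts of genes, list genes and members were 794, 8 and 1 with DESeq2, 651, 7 and 1 with RLE factors, 492, 6 and 1 with library size alone, 797, 8 and 1 with the replicate block, and 521, 7 and 1 with the CPM minimum. Ptn was lower in all 24 alternatives, with log2 fold changes of -2.87 to -1.16, and past the threshold in 11 of 11 without control replicate 1 (adjusted p 1.27e-08 to 0.0364) and 1 of 13 with it (adjusted p 0.00148 to 0.969). The alternatives refit the same libraries, and the list was drawn up with the difference of Ptn known, so they are no independent support for it. Gpc1 and Gpc6 were higher in each alternative. In fits that left out libraries the log2 fold change ranged over -0.011 to 0.51 for Sdc1, -0.12 to 0.15 for Sdc2, -0.55 to 0.15 for Sdc4 and -0.12 to 0.19 for Gpc4, and so changed sign. Without control replicate 1, with DESeq2, RLE factors, library size alone, the replicate block and the CPM minimum in turn, Sdc2 was at -0.069, -0.076, -0.035, -0.085 and -0.080, and Gpc4 at 0.098, 0.090, 0.13, 0.081 and 0.085; Sdc4 was at 0.031 with library size alone. The cause of these changes was not tested. Whether the replicate numbers pair the libraries is not given in the sources used here. Deviations from the group mean correlated at 0.0378, 0.122 and -0.0504 in same-numbered libraries, and at -0.191 to 0.167 in differently numbered ones. With 3 libraries per group and control replicate 1 apart, these values cannot decide it. Mdk, Gpc3 and Sdc3 had too few counts to show a difference.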
